A study of Rattus norvegicus with 54 samples.

Results

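The infarct zone of untreated MI hearts was compared with the same anterior left ventricular wall of sham-operated hearts, 1 week after surgery. The comparison took the 6 libraries labelled MI and the 6 labelled Sham with the tissue region infarct, which are 12 of the 54 libraries of the series. All animals were female athymic rats of the strain F344/NJcl-rnu/rnu, 8 weeks old at surgery. Such animals, the paper states, make no mature T cells, yet T cell markers were high in sham replicate 5, described below. MI hearts had the proximal left anterior descending coronary artery tied off for good and received no treatment, whereas sham hearts had sham surgery and no treatment. Tissue was taken below the level of the stitch, so that the sham pieces called infarct zone hold anterior wall without an infarct. Each library is polyadenylated RNA of 1 tissue piece of 1 heart. For the sequencing, the paper's methods give 6 hearts per group and its results 5 to 6 animals per group, without naming the group with fewer. Per the study's methods the libraries are of separate hearts, whereas the labels speak of technical replicates. Were they technical, p-values would measure the spread between these libraries only. Hearts with the same number in the MI and sham groups are different rats.

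An infarct heals in stages. After dying cardiomyocytes are cleared by neutrophils and macrophages, resident fibroblasts divide, become contractile myofibroblasts and lay down a provisional matrix that fibrillar collagen then replaces, while surviving cardiomyocytes at the edge return to a fetal pattern of contractile and metabolic genes. Because tissue pieces were sequenced whole, fewer cells of a type and less RNA per cell cannot be told apart in any value below.

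The labelled tissue carried its markers. The 8 cardiomyocyte markers (such as Myh6, Tnnt2, Tnni3 and Ryr2) summed to 17192 counts scaled to library size with TMM factors (CPM) in sham replicate 5 and to 43970 to 54880 CPM in the other 5 sham libraries. In the MI libraries they summed to 2069 to 27810 CPM, the highest of which lay above sham replicate 5. Counts on genes were 12699204 to 17233325 in the sham libraries and 18821474 to 22459805 in the MI libraries. The share of all counts that fell on no gene was 28.2% ± 3.94 in sham and 17.8% ± 5.40 in MI hearts (SD, n = 6 each, exact permutation test, 2-sided, p = 0.00433, adjusted over 4 values 0.00577), so that depth and this share moved with the groups. With all libraries thinned to the smallest total, 7607 genes passed, against 7866. The part of the share in the results was not tested.

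Sham replicate 5 stood apart from the other sham libraries. On the first principal component, which took 80.6% of the variance of the 500 most variable genes, sham 5 lay at 5.97, the other sham libraries at -47.9 to -41.4, and the MI libraries at 1.45 to 61.5. Of 15758 genes tested, 1800 were more than 1 log2 unit above, and 1212 more than 1 log2 unit below, every other sham library in sham 5, whereas each of the other 5 sham libraries exceeded the rest in 8 to 33 genes and lay below them in 48 to 74. The 10 genes with the largest excess were Ubd, Cxcl13, RGD1305184, Lilrb3, Fcgr3a, Ciita, Cxcl10, Gzmk, Batf2 and LOC685078. Ubd, an interferon-inducible ubiquitin-like modifier, was at 1670 CPM in sham 5 and at 7.18 to 25.9 CPM in the others. Ciita, the master regulator of MHC class II genes, was at 257 CPM against 3.95 to 5.51 CPM. The border and remote zone libraries of that heart also stood apart: the mean log2 CPM of the MHC class II genes was 9.42 in its border zone, where the others had 4.10 to 4.96, and 9.0 in its remote zone, where the others had 4.07 to 5.05. For the T cell markers it was 5.74 in the border and 5.25 in the remote zone, where no other sham heart exceeded 1.67. Results are therefore given with all 12 libraries and, where they differ, with sham 5 left out. Genes named below as the exceptions of a list were chosen after their values were seen.

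**Figure D1:**
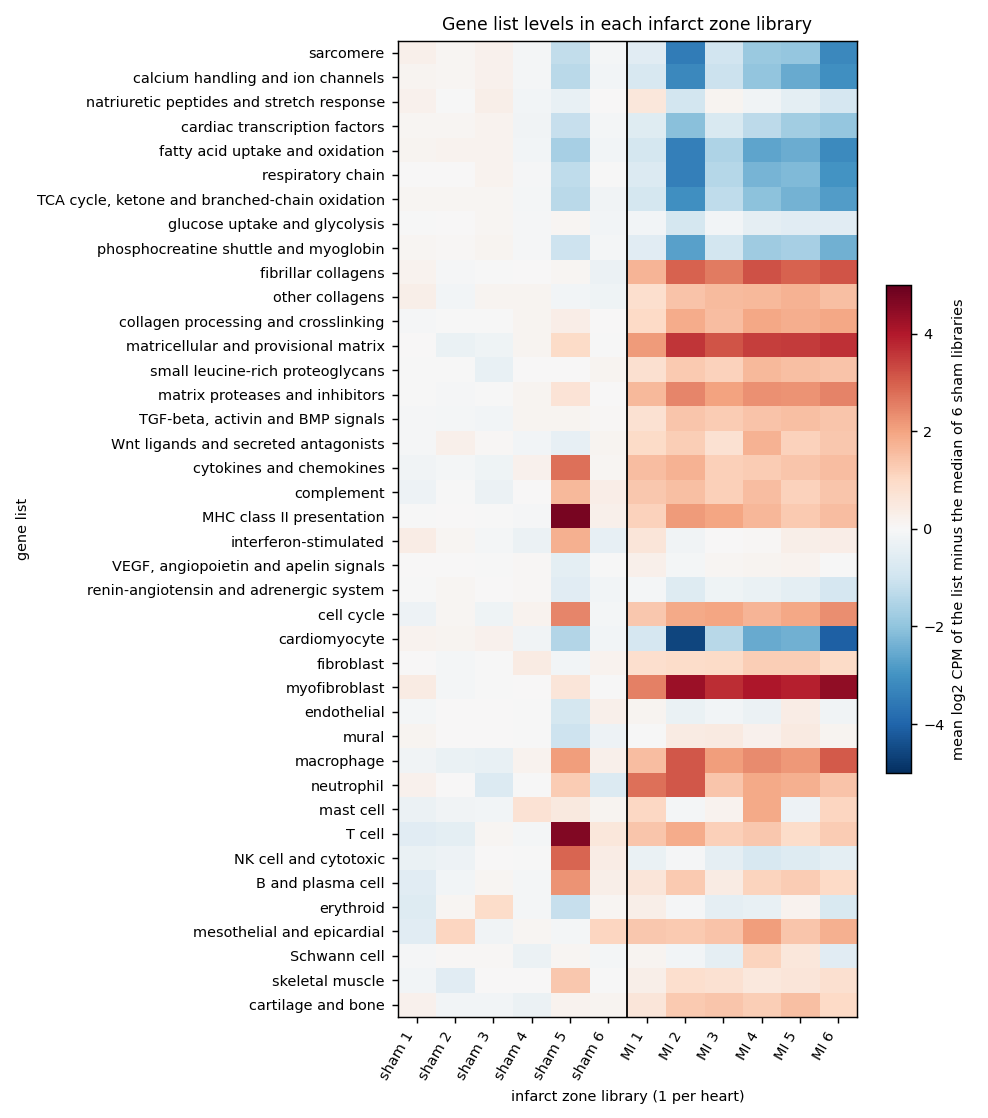
Heat map of 40 gene lists (rows) in the 12 infarct zone libraries (columns); colour is the mean log2 CPM of a list minus the median of the 6 sham libraries, red above and blue below. Cardiomyocyte and oxidation lists are blue in the MI libraries, most in MI 2 and MI 6, matrix lists are red in all 6 MI libraries, and sham 5 is red for the MHC class II and T cell lists.

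With all 12 libraries, 7866 of 15758 genes (49.9%) passed an adjusted p of 0.05 in edgeR's quasi-likelihood F test, 3580 higher (22.7%) and 4286 lower (27.2%) in MI. With library size in place of TMM factors the median log2 fold change of all genes moved from -0.02 to 0.24 and the higher share of the calls from 45.5% to 67.1%, so that directions of small changes depend on the scaling. Without sham 5, 10434 of 16107 genes (64.8%) passed, 5489 higher (34.1%) and 4945 lower (30.7%). Of the 15758 genes, 7765 were called in both fits, all in the same direction, 101 only with all libraries and 2511 only without sham 5. The 6 MI libraries lay wholly above the 6 sham libraries in 1334 genes (8.47%) and wholly below them in 917 (5.82%), together 2251 (14.3%). Without sham 5 they lay wholly above in 3744 (23.8%) and wholly below in 3444 (21.9%), together 7188 (45.6%). Counts of list members below are to be read beside these shares.

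Contractile genes of the cardiomyocyte were lower in the MI infarct zone. Of 24 sarcomere genes tested, 20 fell and none rose (median log2 fold change -1.69, against -0.02 over all genes), and 22 fell without sham 5. Myh6, the fast α-myosin heavy chain of the adult rat ventricle, was at 1911 to 10088 CPM (median 7959) in sham and 71.2 to 2975 CPM (median 706) in MI hearts, 6.33-fold lower (log2 fold change -2.66, SE 0.77, adjusted p = 0.0136). Only sham 5, at 1911 CPM, lay inside the MI range, in which MI 2 was lowest and MI 1 highest. Tnni3, the cardiac inhibitory troponin, ranged over 4792 to 13507 CPM (median 12803) in sham and 292 to 6496 CPM (median 1569) in MI (log2 fold change -2.32, SE 0.65, adjusted p = 0.0116). For the ventricular regulatory light chain Myl2 the ranges were 3541 to 10320 CPM (median 8307) and 601 to 7365 CPM (median 2410) (log2 fold change -1.43, SE 0.55, adjusted p = 0.0458). The cardiac actin Actc1 was at 3386 to 10221 CPM (median 7693) and 583 to 5240 CPM (median 1783) (log2 fold change -1.72, SE 0.53, adjusted p = 0.0176). In each of these genes the MI libraries lay below every sham library but replicate 5.

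The 4 sarcomere genes that did not pass were Myh7, Csrp3, Myot and Pdlim5, of which Myot and Pdlim5 passed as lower without sham 5. Myh7, the slow β-myosin heavy chain that replaces Myh6 in stressed rodent ventricle, was at 725 to 1789 CPM (median 1256) in sham and 659.8 to 2846 CPM (median 1752) in MI hearts (log2 fold change 0.38, SE 0.34, adjusted p = 0.365), and its ranges overlapped widely. The share of Myh7 in the counts of both genes, not corrected for transcript length, was 17.6% ± 12.2 in sham and 67.5% ± 17.7 in MI (SD, n = 6 each, exact permutation p = 0.00433, adjusted 0.00577). Sham 5 held 41.9%, just above MI 1 with 40.0%, and every other sham library lay between 9.01% and 15.8%, below every MI library.

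**Figure D2:**
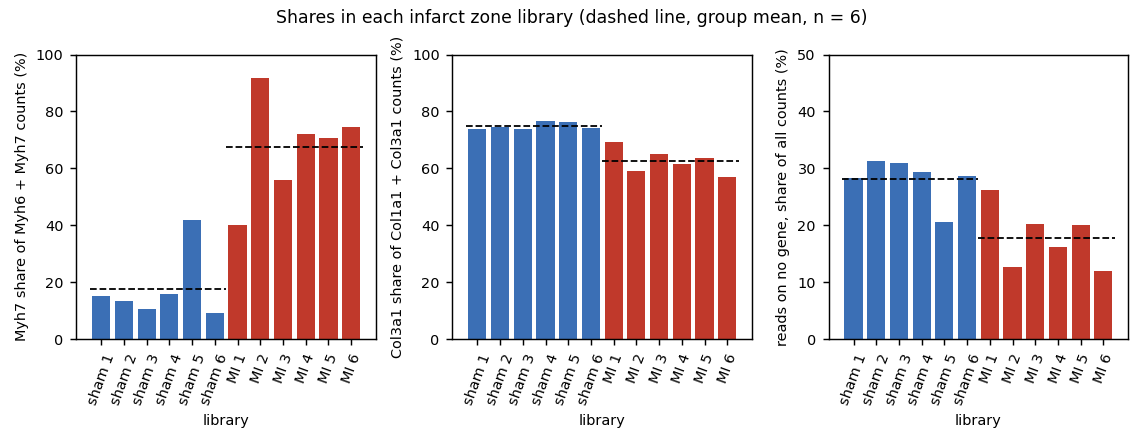
Bars give, for each infarct zone library, the Myh7 share of Myh6 and Myh7 counts, the Col3a1 share of Col1a1 and Col3a1 counts, and the share of all counts that fell on no gene, each in percent with group means as dashed lines. The Myh7 share reached 91.9% in MI 2, while the Col3a1 share and the share on no gene were lower in MI.

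The promoters of 4 genes stand here for gene groups described below: Myh6 for the genes that fell, Nppa for the natriuretic peptides, and Postn and Tnn for the matrix genes that rose. Each is the 250 bases before the annotated start in RefSeq (GRCr8, another assembly than the one the reads were aligned to), 5′ to 3′ on the gene's strand, with capitals marking TATAAA, the M-CAT letters CATTCC bound by TEAD factors, or the AP-1 letters TGANTCA, on either strand; these windows hold no TGANTCA.
Myh6, chr15:32411698-32411947, minus strand: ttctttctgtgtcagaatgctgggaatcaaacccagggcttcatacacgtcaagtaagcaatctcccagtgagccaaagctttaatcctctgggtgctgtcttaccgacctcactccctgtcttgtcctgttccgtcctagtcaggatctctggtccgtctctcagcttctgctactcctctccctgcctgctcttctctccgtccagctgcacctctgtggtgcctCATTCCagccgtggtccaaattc
Nppa, chr5:163711934-163712183, plus strand: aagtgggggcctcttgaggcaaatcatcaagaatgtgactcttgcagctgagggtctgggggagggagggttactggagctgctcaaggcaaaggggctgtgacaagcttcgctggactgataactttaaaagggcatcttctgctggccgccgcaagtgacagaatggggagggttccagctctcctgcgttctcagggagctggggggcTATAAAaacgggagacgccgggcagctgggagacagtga
Postn, chr2:140677811-140678060, plus strand: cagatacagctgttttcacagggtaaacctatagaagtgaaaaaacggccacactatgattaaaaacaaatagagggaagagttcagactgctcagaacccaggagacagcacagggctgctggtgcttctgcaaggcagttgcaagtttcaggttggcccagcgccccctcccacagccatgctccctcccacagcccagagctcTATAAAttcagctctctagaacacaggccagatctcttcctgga
Tnn, chr13:74919790-74920039, minus strand: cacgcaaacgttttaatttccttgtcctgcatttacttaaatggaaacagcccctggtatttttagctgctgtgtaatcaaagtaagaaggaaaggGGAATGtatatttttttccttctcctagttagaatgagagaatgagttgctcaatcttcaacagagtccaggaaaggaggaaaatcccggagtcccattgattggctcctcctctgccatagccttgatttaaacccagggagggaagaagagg
TATAAA began 39 bases before the start of Nppa and 44 before that of Postn, CATTCC began 23 bases before that of Myh6, and its reverse complement began 154 bases before that of Tnn. Among 27457 promoters of this length, 13.1% held TATAAA, 11.8% CATTCC and 6.36% TGANTCA. Of 24 sarcomere genes 16 had a promoter in the table, and 1 of these held TATAAA, 5 CATTCC and 1 TGANTCA. Of 28 matricellular genes 19 had one, with 6, 5 and 0 in the same order. These are matches of letters and were not tested.

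Calcium handling and conduction genes were mostly lower as well. Of 24 tested, 22 fell and none rose (median -1.76), with the same 22 as a count without sham 5. Atp2a2, the SERCA2 pump that returns calcium to the sarcoplasmic reticulum, was at 2692 to 8838 CPM (median 7944) in sham and 409.9 to 3651 CPM (median 1187) in MI (log2 fold change -2.14, SE 0.55, adjusted p = 0.00775). Its release channel Ryr2 ranged over 537 to 1655 CPM (median 1450) and 97.5 to 697 CPM (median 305) (log2 fold change -1.91, SE 0.50, adjusted p = 0.00803). Kcnip2, the subunit of the transient outward potassium channel, was at 239 to 823 CPM (median 749) in sham and 8.2 to 385 CPM (median 87.5) in MI (log2 fold change -2.25, SE 0.77, adjusted p = 0.0281). MI 2 with 8.2 CPM was its lowest library. The 2 genes that did not pass were the potassium channel Kcna5 (log2 fold change -0.75, adjusted p = 0.212) and the pacemaker channel Hcn4 (log2 fold change 0.09, adjusted p = 0.927). Of 19 cardiac transcription factors, 17 fell (median -1.11), and 18 without sham 5. The homeobox factor Nkx2-5 ranged over 41.5 to 116 CPM (median 104) and 7.24 to 57.6 CPM (median 21.7) (log2 fold change -1.71, SE 0.49, adjusted p = 0.0124), and Tbx20 (log2 fold change -0.94, adjusted p = 0.00683) and Gata4 (log2 fold change -0.57, adjusted p = 0.0285) fell too.

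Natriuretic peptide and stretch genes went both ways. Of 17 tested, 6 fell and 1 rose (median -0.28), and without sham 5, 6 fell and 2 rose. With all libraries 41.2% of them were called, fewer than the 49.9% of all genes. Nppa, the atrial natriuretic peptide of the stressed ventricle, was at 468 to 3535 CPM (median 1036) in sham and 1245 to 6620 CPM (median 2956) in MI (log2 fold change 1.17, SE 0.52, adjusted p = 0.0787). Sham 5 lay inside the MI range at 3535 CPM. Without sham 5 it was higher in MI (log2 fold change 1.69, SE 0.45, adjusted p = 0.00569). The B-type peptide Nppb ranged over 383 to 763 CPM (median 476) and 179 to 729 CPM (median 315) (log2 fold change -0.49, SE 0.33, adjusted p = 0.232). The stretch-induced nuclear protein Ankrd1 ranged over 2079 to 3931 CPM (median 2601) and 1116 to 3046 CPM (median 2420) (log2 fold change -0.30, SE 0.28, adjusted p = 0.387). Neither passed with or without sham 5. The gene that rose was the ubiquitin hydrolase Uchl1 (log2 fold change 3.81, SE 0.48, adjusted p = 0.000179).

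Mitochondrial oxidation genes were lower without exception among those tested: 25 of 25 genes of fatty acid uptake and oxidation (median -1.90), 31 of 31 nuclear-encoded respiratory chain genes (median -1.71) and 24 of 24 genes of the TCA cycle and of ketone and branched-chain oxidation (median -1.65) fell, and all did so without sham 5. Fabp3, the heart fatty acid-binding protein, was at 1179 to 4479 CPM (median 3826) in sham and 71.1 to 1816 CPM (median 350.5) in MI (log2 fold change -2.55, SE 0.70, adjusted p = 0.0104). Cpt1b, which admits fatty acids to the mitochondrion, ranged over 136 to 541 CPM (median 427) and 23.5 to 235 CPM (median 73) (log2 fold change -2.01, SE 0.55, adjusted p = 0.0104). The dehydrogenase Acadm ranged over 322 to 1136 CPM (median 1021) and 92.3 to 568 CPM (median 165) (log2 fold change -1.89, SE 0.49, adjusted p = 0.00775). In all 3 genes the other 5 sham libraries lay above all 6 MI libraries and sham 5 lay within the MI range. Ndufs1, a complex I core subunit, was at 412 to 1293 CPM (median 1126) and 84.2 to 495 CPM (median 205) (log2 fold change -1.99, SE 0.46, adjusted p = 0.00454). The heart isoform Cox6a2 of cytochrome oxidase was at 642 to 1967 CPM (median 1518) and 128 to 1100 CPM (median 416) (log2 fold change -1.58, SE 0.49, adjusted p = 0.0179). Bdh1, which starts the oxidation of β-hydroxybutyrate, was at 31.3 to 119 CPM (median 99) and 10.8 to 33.1 CPM (median 19.3) (log2 fold change -2.12, SE 0.38, adjusted p = 0.00134). Its partner Oxct1 fell by 1.91 (adjusted p = 0.00595) and the TCA enzyme Idh3a by 1.38 (adjusted p = 0.00495) on the log2 scale. The mitochondrially encoded genes are not among the genes analysed here.

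Glycolytic genes went both ways. Of 26 tested, 14 fell and 2 rose (median -0.38), and without sham 5, 14 fell and 8 rose. With all libraries 61.5% of them were called, against 49.9% of all genes. Slc2a4, the insulin-responsive glucose transporter GLUT4 of muscle, was at 114 to 502 CPM (median 397) in sham and 13.6 to 224 CPM (median 61.4) in MI (log2 fold change -2.05, SE 0.63, adjusted p = 0.0175). The general transporter Slc2a1 (GLUT1) ranged over 9.63 to 43.9 CPM (median 11.8) and 18.3 to 54.3 CPM (median 31.2) (log2 fold change 1.00, SE 0.40, adjusted p = 0.0527). Its sham 5 value of 43.9 CPM lay within the MI range, and without that library the other 5 sham libraries, at 9.63 to 12.5 CPM, lay below all MI libraries (log2 fold change 1.58, SE 0.23, adjusted p = 0.00014). The 2 genes that rose with all libraries were the neuronal and leukocyte transporter Slc2a3 (log2 fold change 0.61, adjusted p = 0.00245) and the lactate exporter Slc16a3 (log2 fold change 2.17, adjusted p = 0.0159). Hk1 fell by 0.44 on the log2 scale (adjusted p = 0.0141). Of 10 phosphocreatine and oxygen-storage genes, 8 fell and 1, the creatine-synthesis enzyme Gatm, rose (log2 fold change 0.52, adjusted p = 0.00602). Myoglobin (Mb) was at 6408 to 21158 CPM (median 19720) in sham and 570.3 to 13604 CPM (median 2810) in MI (log2 fold change -1.95, SE 0.68, adjusted p = 0.0316). The mitochondrial creatine kinase Ckmt2 was at 1472 to 5050 CPM (median 4315) and 72.6 to 2332 CPM (median 671) (log2 fold change -2.21, SE 0.71, adjusted p = 0.0213). The muscle form Ckm was at 511 to 2580 CPM (median 2050) and 37.3 to 998 CPM (median 228) (log2 fold change -2.36, SE 0.72, adjusted p = 0.0166). The brain form Ckb did not pass (log2 fold change 0.28, adjusted p = 0.126).

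**Figure D3:**
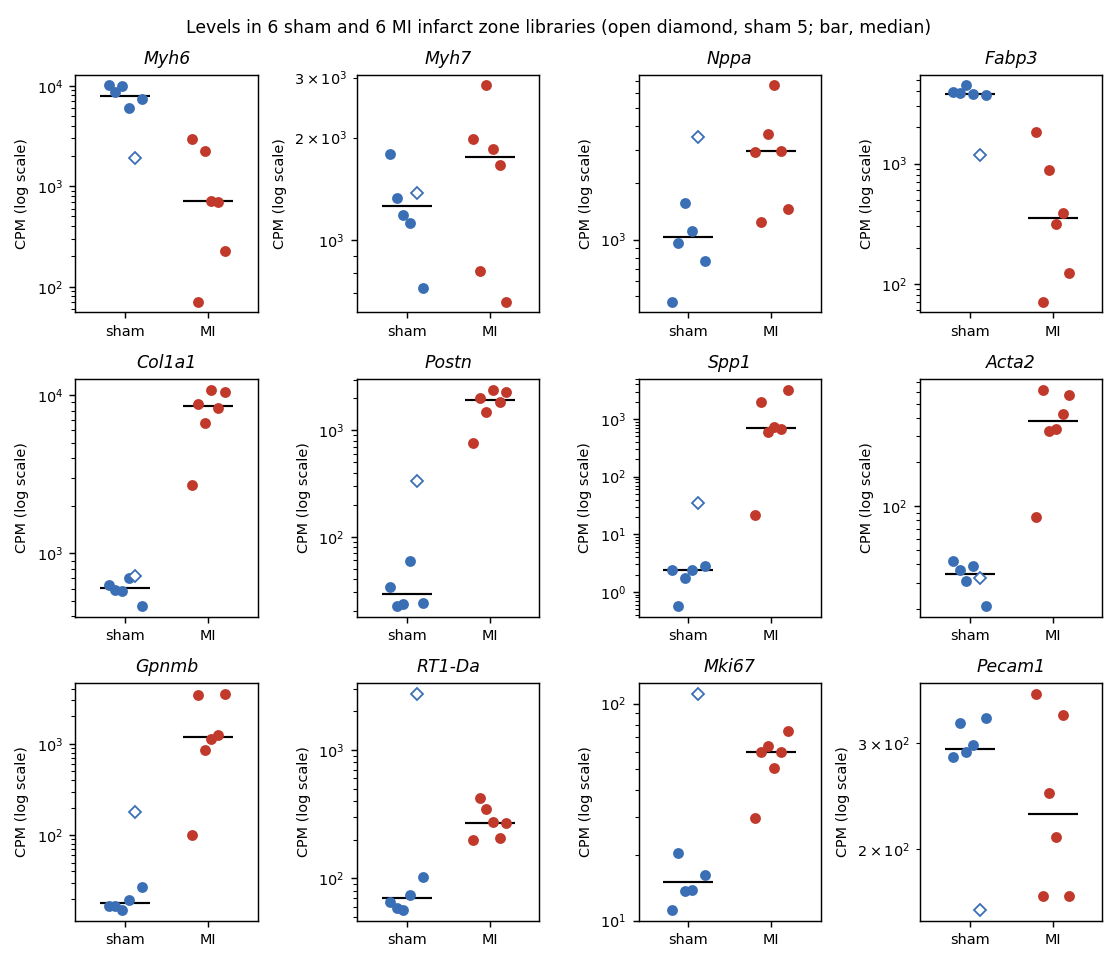
Levels of 12 genes in CPM on a log axis, 1 point per library, sham blue and MI red, with the median as a bar and sham 5 as an open diamond. Sham 5 is the lowest sham library for Myh6 and the highest for Postn, and lies above all MI libraries for RT1-Da and Mki67.

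Collagen genes rose. All 9 fibrillar collagen genes tested rose (median 2.74), and 8 of them had no overlap between the groups, where 8.47% of all genes lay wholly higher. Col1a1, the main chain of scar collagen, was at 467 to 724 CPM (median 609) in sham and 2705 to 10854 CPM (median 8565) in MI, 13-fold higher (log2 fold change 3.70, SE 0.33, adjusted p = 4.1e-05). Col3a1, the chain of the finer reticular fibres, ranged over 1342 to 2313 CPM (median 1745) and 6116 to 17464 CPM (median 13326) (log2 fold change 2.81, SE 0.29, adjusted p = 6.2e-05). MI 1 was lowest of the MI libraries for both, at 2705 and 6116 CPM. The share of Col3a1 in the counts of both genes was 74.8% ± 1.19 in sham and 62.7% ± 4.43 in MI hearts (SD, n = 6 each), without overlap (exact permutation p = 0.00216, the smallest that 6 against 6 can give, adjusted 0.00577). Col11a1, a minor fibrillar chain best known from cartilage, went from 0 to 1.38 CPM (median 0.219) to 10.7 to 120.0 CPM (median 80.2) (log2 fold change 7.33, SE 0.77, adjusted p = 6.54e-05).

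Of 22 other collagen genes, 15 rose and none fell (median 1.19), and without sham 5, 15 of the same 22 rose and 2, the basement membrane chains Col4a3 and Col4a4, fell. The fibril-associated Col12a1 was at 5.68 to 8.41 CPM (median 6.12) in sham and 64.2 to 389.7 CPM (median 287) in MI (log2 fold change 5.34, SE 0.40, adjusted p = 2.88e-05). The short-chain Col8a1 was at 15 to 26.7 CPM (median 20.6) and 66.2 to 279 CPM (median 201) (log2 fold change 3.29, SE 0.30, adjusted p = 4.33e-05). The basement membrane chain Col4a1 overlapped between groups, at 339.9 to 658 CPM (median 584) and 646 to 1671 CPM (median 1430) (log2 fold change 1.29, SE 0.23, adjusted p = 0.00137). Of 24 genes that modify, fold, trim or crosslink collagen, 20 rose and none fell (median 1.67). Lox, the crosslinking lysyl oxidase, was at 20.4 to 44.3 CPM (median 24.8) and 177 to 558 CPM (median 421) (log2 fold change 3.90, SE 0.30, adjusted p = 2.88e-05). The prolyl hydroxylase subunit P4ha3 ranged over 0.914 to 2.54 CPM (median 1.53) and 7.62 to 51.8 CPM (median 35) (log2 fold change 4.36, SE 0.45, adjusted p = 6.19e-05). The collagen chaperone Serpinh1 ranged over 418 to 536 CPM (median 477) and 925 to 1629 CPM (median 1414) (log2 fold change 1.5, SE 0.16, adjusted p = 7.42e-05). None of these 3 overlapped.

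Matricellular and provisional matrix genes rose almost without exception. Of 28 tested, 27 rose and none fell (median 2.54), 23 without overlap; the remaining gene was Smoc2 (log2 fold change 0.40, adjusted p = 0.289). Postn, the periostin of activated fibroblasts, was at 22.5 to 332 CPM (median 28.8) in sham and 768 to 2425 CPM (median 1946) in MI (log2 fold change 4.46, SE 0.78, adjusted p = 0.00119). Its highest sham value, 332 CPM, was that of sham 5, and the log2 fold change was 5.80 without it. Tnc, the tenascin of wound edges, ranged over 2.07 to 136 CPM (median 3.3) and 114 to 413 CPM (median 184) (log2 fold change 3.05, SE 1.08, adjusted p = 0.0331). Only sham 5, at 136 CPM, reached the MI range (log2 fold change 6.05, adjusted p = 7.83e-06 without it). Spp1, the osteopontin that macrophages and myofibroblasts secrete, was at 22.1 to 3255 CPM (median 705) in MI hearts, against 0.575 to 35.5 CPM (median 2.37) in sham (log2 fold change 7.31, SE 1.37, adjusted p = 0.00169). MI 1 with 22.1 CPM lay below sham 5 with 35.5 CPM, whereas MI 2 and MI 6 reached 1991 and 3255 CPM. Fibronectin (Fn1) was at 142 to 333 CPM (median 183) and 1069 to 3739 CPM (median 2217) (log2 fold change 3.51, SE 0.33, adjusted p = 4.33e-05). Thrombospondin 4 (Thbs4) was at 0.666 to 3.69 CPM (median 1.71) and 23.7 to 56.6 CPM (median 39.2) (log2 fold change 4.26, SE 0.37, adjusted p = 3.64e-05). Neither overlapped.

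Of 11 small leucine-rich proteoglycans, which bind collagen fibrils, 7 rose (median 1.17). Biglycan (Bgn) was at 216 to 619.7 CPM (median 263) in sham and 796 to 3438 CPM (median 3079) in MI (log2 fold change 3.07, SE 0.38, adjusted p = 0.00016). Decorin (Dcn) did not pass and overlapped at 959.5 to 1500 CPM (median 1092) and 1111 to 1599 CPM (median 1301) (log2 fold change 0.20, SE 0.16, adjusted p = 0.316). Fibromodulin (Fmod) rose (log2 fold change 1.6, SE 0.44, adjusted p = 0.0107). Of 22 matrix proteases and inhibitors, 15 rose and 2, Timp4 (log2 fold change -1.68, adjusted p = 0.0285) and Adam19 (log2 fold change -0.48, adjusted p = 0.0083), fell, and without sham 5, 16 rose and 2 fell. The membrane collagenase Mmp14 was at 65.1 to 102 CPM (median 70.1) and 194 to 483 CPM (median 444) (log2 fold change 2.36, SE 0.22, adjusted p = 4.33e-05). The gelatinase Mmp2 was at 182 to 273 CPM (median 204) and 439.8 to 724 CPM (median 627) (log2 fold change 1.52, SE 0.15, adjusted p = 4.36e-05). Neither overlapped. The inhibitor Timp1 was at 10.6 to 113 CPM (median 14) and 89.1 to 173 CPM (median 129) (log2 fold change 2.13, SE 0.60, adjusted p = 0.0119). Sham 5 at 113 CPM was its only sham library in the MI range. The metalloprotease Adam12 ranged over 0.381 to 3.17 CPM (median 1.06) and 34.6 to 144 CPM (median 81.6) (log2 fold change 6.02, SE 0.52, adjusted p = 3.64e-05).

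Signals of the TGF-β family and their extracellular regulators rose in 19 of 29 genes and fell in none (median 1.04). Without sham 5, 20 rose and 2, the co-receptor Tgfbr3 and myostatin (Mstn), fell. Tgfb3 was at 74.2 to 97.7 CPM (median 78.1) in sham and 130.5 to 303 CPM (median 251) in MI (log2 fold change 1.55, SE 0.18, adjusted p = 9.99e-05), without overlap. Tgfb1 was at 26.1 to 105 CPM (median 35.6) and 53.5 to 119.7 CPM (median 89.5) (log2 fold change 0.98, SE 0.33, adjusted p = 0.0254). Sham 5 held 105 CPM. The activin subunit Inhba was at 4.82 to 10.5 CPM (median 8.33) and 17.5 to 25.7 CPM (median 20.2) (log2 fold change 1.38, SE 0.19, adjusted p = 0.000337). The latent TGF-β binding protein Ltbp2, a microfibril component, was at 4.29 to 88.9 CPM (median 6.45) and 77.9 to 759 CPM (median 686) (log2 fold change 4.83, SE 0.94, adjusted p = 0.00206). Without sham 5 it gave a log2 fold change of 6.55, SE 0.56, adjusted p = 1.49e-05. Of 19 Wnt ligands and secreted antagonists, 9 rose and 1, Wnt11, fell (log2 fold change -1.50, adjusted p = 0.00329), and 9 and 3 without sham 5. With all libraries, 52.6% of them were called in either direction, against 49.9% of all genes, and 22.7% of all genes rose. The secreted modulator Sfrp2 was at 6.18 to 28.5 CPM (median 7.83) and 97.8 to 196 CPM (median 124) (log2 fold change 3.56, SE 0.40, adjusted p = 9.11e-05). The ligand Wnt4 was at 0.0699 to 1.29 CPM (median 0.404) and 14.5 to 54.7 CPM (median 21.4) (log2 fold change 5.78, SE 0.57, adjusted p = 4.9e-05). Wnt5a (log2 fold change -0.45, adjusted p = 0.125) and the antagonist Wif1 (log2 fold change -0.83, adjusted p = 0.0736) did not pass, and without sham 5 both were lower in MI (adjusted p = 0.00806 and 0.0114).

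Markers of contractile and matrix-producing fibroblasts rose together: 10 of 10 myofibroblast genes rose (median 3.76), 8 without overlap. Their summed level was 479.8 CPM in sham 5, 109 to 191 CPM in the other sham libraries and 1116 to 4281 CPM in MI hearts. Acta2, smooth muscle actin, was at 20.9 to 42.3 CPM (median 34.5) in sham and 84 to 623 CPM (median 379.7) in MI (log2 fold change 3.54, SE 0.40, adjusted p = 9.34e-05). Cthrc1, which marks reparative cardiac fibroblasts, ranged over 1.18 to 6.91 CPM (median 1.84) and 65.8 to 348 CPM (median 211) (log2 fold change 6.26, SE 0.57, adjusted p = 4.17e-05). The factor Meox1 was at 1.61 to 2.81 CPM (median 2.01) and 4.31 to 12.5 CPM (median 6.31) (log2 fold change 1.75, SE 0.28, adjusted p = 0.000663). Runx1, a factor of fibroblast activation, was at 3.96 to 30.9 CPM (median 5.5) and 18.5 to 64.6 CPM (median 45.7) (log2 fold change 2.24, SE 0.53, adjusted p = 0.00528). Sham 5 with 30.9 CPM was the only overlap. Of 8 other fibroblast markers, among them the collagen chain Col1a2, 6 rose and 1, the actin-severing Gsn, fell (log2 fold change -1.39, adjusted p = 0.0221), while Tcf21 did not pass (log2 fold change 0.32, adjusted p = 0.062).

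Few endothelial markers passed. Of 11 endothelial markers 1, the caveolar diaphragm protein Plvap, rose (log2 fold change 0.93, SE 0.35, adjusted p = 0.0422), and the list median was -0.05. Without sham 5 another, endomucin (Emcn), fell. With all libraries 9.09% of the endothelial markers were called, against 49.9% of all genes. Plvap lost its call in 9 of 20 alternative fits. Pecam1, the endothelial adhesion molecule CD31, was at 159 to 330.1 CPM (median 294) in sham and 167 to 362 CPM (median 229) in MI (log2 fold change -0.18, SE 0.23, adjusted p = 0.54). Sham 5 was lowest at 159 CPM. Of 9 mural cell markers, 4 rose and 1, the channel subunit Abcc9, fell (log2 fold change -1.08, adjusted p = 0.00621), and without sham 5, 4 rose and 3 fell (Abcc9, Rgs5 and Kcnj8). The share of mural markers called with all libraries was 55.6%, against 49.9% of all genes. The smooth muscle myosin Myh11 was at 17.1 to 43.1 CPM (median 29.5) and 32.5 to 161 CPM (median 79.1) (log2 fold change 1.49, SE 0.34, adjusted p = 0.00445). Notch3, a receptor of mural cells, was at 26.8 to 63.2 CPM (median 51) and 42.8 to 124 CPM (median 103) (log2 fold change 1.02, SE 0.26, adjusted p = 0.00732). The pericyte marker Rgs5 did not pass (log2 fold change -0.49, adjusted p = 0.103; adjusted p = 0.00723 and lower without sham 5). Of 21 genes of VEGF, angiopoietin and apelin signals, 7 rose and 5 fell, and 8 rose and 10 fell without sham 5. With all libraries 57.1% of these were called, against 49.9% of all genes. Vegfa, the main endothelial growth factor, was lower, at 352 to 867 CPM (median 804) and 159.6 to 516 CPM (median 328) (log2 fold change -1.22, SE 0.31, adjusted p = 0.00691). Lower too were Vegfb (log2 fold change -1.22, SE 0.32, adjusted p = 0.00831) and the vessel-stabilising Angpt1 (log2 fold change -1.30, SE 0.37, adjusted p = 0.0129). Cxcl12, the chemokine of progenitor cell homing, did not pass (log2 fold change -0.15, SE 0.15, adjusted p = 0.435).

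Of 13 renin-angiotensin and adrenergic genes, 2 rose and 5 fell, and 3 and 5 without sham 5. The share called with all libraries, 53.8%, was near the 49.9% of all genes. Ace, the angiotensin-converting enzyme, was at 8.84 to 12.2 CPM (median 11.3) in sham and 29 to 55.8 CPM (median 46.2) in MI (log2 fold change 2.06, SE 0.17, adjusted p = 3.6e-05). The angiotensin receptor Agtr1a was at 1.9 to 5.53 CPM (median 3.69) and 12.4 to 43.9 CPM (median 34) (log2 fold change 3.03, SE 0.33, adjusted p = 8.08e-05). Both were wholly higher. Adrb1, the main β-adrenergic receptor of the cardiomyocyte, was wholly lower, at 8.64 to 19.1 CPM (median 17.5) and 1.24 to 8.04 CPM (median 3.86) (log2 fold change -1.78, SE 0.41, adjusted p = 0.00472).

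**Figure D4:**
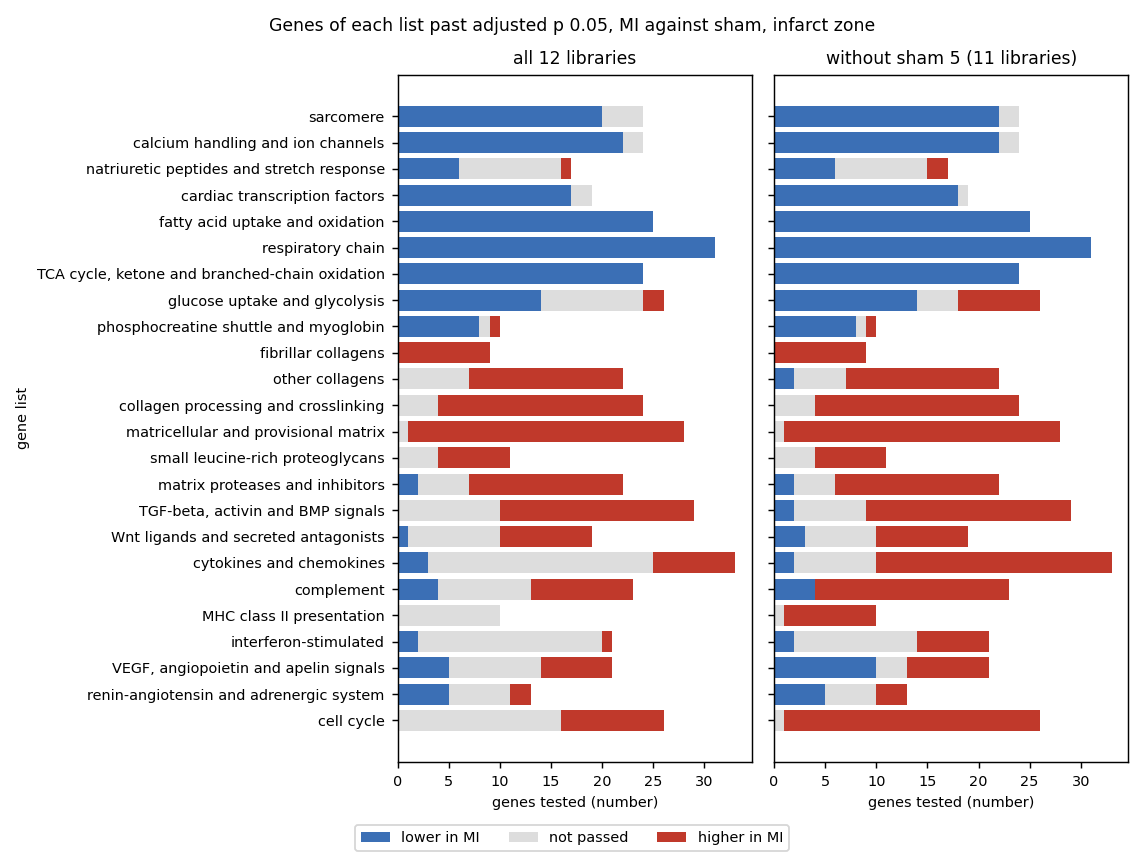
Numbers of genes tested in 24 process lists, split into lower in MI (blue), not passed (grey) and higher in MI (red) at an adjusted p of 0.05, with all 12 libraries and without sham 5. Leaving out sham 5 raises the red part from 8 to 23 genes for cytokines, from 10 to 19 for complement, from 0 to 9 for MHC class II and from 10 to 25 for the cell cycle, while the oxidation lists are wholly blue in both panels.

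Macrophage markers rose in 11 of 16 genes and fell in none (median 1.55), and in 16 of 16 without sham 5. Their summed level was 325 to 501 CPM in 5 sham libraries, 2308 CPM in sham 5 and 1138 to 7295 CPM in MI hearts. Gpnmb, a glycoprotein of lipid-laden and reparative macrophages, was at 15.2 to 177 CPM (median 18.1) in sham and 99.5 to 3528 CPM (median 1185) in MI (log2 fold change 5.24, SE 0.98, adjusted p = 0.0017). The lysosomal Cd68 was at 7.03 to 121 CPM (median 11.1) and 36.3 to 336 CPM (median 131) (log2 fold change 2.61, SE 0.81, adjusted p = 0.0179). The lipid receptor Trem2 was at 4.22 to 30.2 CPM (median 7.77) and 28.6 to 233 CPM (median 109) (log2 fold change 3.59, SE 0.60, adjusted p = 0.000908). In all 3, sham 5 lay above MI 1 and was the only overlap. Cd163, a scavenger receptor of resident macrophages, rose as well (log2 fold change 0.91, SE 0.22, adjusted p = 0.00518). Of 6 neutrophil markers tested 4 rose, and 5 without sham 5. The alarmin S100a8 ranged over 0.7 to 2.66 CPM (median 1.26) and 1.52 to 15 CPM (median 4.36) (log2 fold change 2.11, SE 0.60, adjusted p = 0.0121), while the granule enzyme Mpo was at 0 in 5 sham and 4 MI libraries.

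Inflammatory genes depended on sham 5. Of 33 cytokine and chemokine genes, 8 rose and 3 fell with all libraries (median 0.38), and 23 rose and 2 fell without it (median 1.54). With all libraries 33.3% of them were called, fewer than the 49.9% of all genes. Over all genes, leaving out sham 5 raised the share that rose from 22.7% to 34.1%. Ccl2, the monocyte attractant, was at 10.6 to 19.6 CPM in 5 sham libraries, 192 CPM in sham 5 and 36.5 to 54.3 CPM (median 44.2) in MI (log2 fold change 0.01, SE 0.68, adjusted p = 0.993). Leaving out sham 5 gave a log2 fold change of 1.58, SE 0.18, adjusted p = 3.88e-05. Il1b was at 0.914 to 2.63 CPM in 5 sham libraries, 32.5 CPM in sham 5 and 5.86 to 12.6 CPM (median 10.5) in MI (log2 fold change 0.38, SE 0.75, adjusted p = 0.69). Without that library it gave a log2 fold change of 2.12, SE 0.30, adjusted p = 0.00014. For both, sham 5 lay above and the other 5 sham libraries lay below all MI hearts. The alarmin Il33 rose with all libraries (log2 fold change 0.99, SE 0.18, adjusted p = 0.00161) and without sham 5 (log2 fold change 1.01, SE 0.19, adjusted p = 0.000859). Il6 was below the filter on low counts, at up to 0.633 CPM in sham and 1.4 CPM in MI. Of 23 complement genes, 10 rose and 4 fell (60.9% called, against 49.9% of all genes), and 19 and 4 without sham 5. C1qa, made by macrophages, was at 65.3 to 115 CPM in 5 sham libraries, 742 CPM in sham 5 and 247 to 402 CPM (median 293) in MI (log2 fold change 0.65, SE 0.58, adjusted p = 0.366). Leaving out sham 5 gave a log2 fold change of 1.83, SE 0.19, adjusted p = 2.73e-05. The central component C3 was at 6.24 to 18.1 CPM, 369.7 CPM and 118 to 183 CPM (median 140.2) in the same order (log2 fold change 1.02, SE 0.93, adjusted p = 0.374). Without that library it gave a log2 fold change of 3.52, SE 0.31, adjusted p = 1.51e-05.

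The medians of the MHC class II and T cell lists changed sign when sham 5 was left out. So did those of the interferon-stimulated (-0.44 to 0.20), skeletal muscle (-0.37 to 0.20) and mural lists (0.10 to -0.01). None of 10 MHC class II genes passed with all 12 libraries (edgeR, median -1.0), whereas 9 rose without sham 5 (median 1.75). With all 12 libraries, 0 of the 10 had an unadjusted p under 0.05 and DESeq2 called 0, whereas limma-voom with a quality weight for each library called 9, all higher. RT1-Da, a class II α chain, was at 56.5 to 102 CPM in 5 sham libraries, 2740 CPM in sham 5 and 199 to 425 CPM (median 270.4) in MI (log2 fold change -0.85, SE 0.99, adjusted p = 0.486). Leaving out sham 5 gave a log2 fold change of 2.00, SE 0.23, adjusted p = 4.13e-05. Cd74, the invariant chain, did not pass either way (log2 fold change -1.04, adjusted p = 0.187; 0.31, adjusted p = 0.118 without sham 5). Of 12 T cell markers none rose and 2 fell (Cd28 and Foxp3), and without sham 5, 6 rose and 1, Foxp3, fell. Cd3e, the CD3 chain of the T cell receptor, was at 0 to 0.525 CPM in 5 sham libraries, 103 CPM in sham 5 and 1.36 to 4.74 CPM (median 3) in MI (log2 fold change -2.54, SE 1.55, adjusted p = 0.189). Leaving out sham 5 gave a log2 fold change of 3.86, SE 0.68, adjusted p = 0.000492. Of 21 interferon-stimulated genes, 1 rose and 2 fell, and 7 and 2 without sham 5, where 34.1% of all genes rose and 30.7% fell. Mx1 was among those called only without it (log2 fold change -0.54, adjusted p = 0.508; 0.80, adjusted p = 0.0232 without sham 5).

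Some cytotoxic lymphocyte genes were lower in MI with and without sham 5. Of 13 natural killer and cytotoxic genes tested, 8 fell and none rose, 5 of them without overlap, where 5.82% of all genes lay wholly lower. Without sham 5, 5 fell (Gzma, Gzmb, Klrb1a, Ncr1 and Il2rb) and 2 rose (Gzmm and Ncr3). Over all genes, 27.2% fell with all libraries, and 30.7% fell and 34.1% rose without sham 5. Gzma, a granzyme, was at 2.36 to 14.7 CPM (median 4.91) in sham and 0.588 to 2 CPM (median 0.67) in MI (log2 fold change -2.74, SE 0.48, adjusted p = 0.00124). Without that library it gave a log2 fold change of -2.26, SE 0.38, adjusted p = 0.000343. The pore-forming Prf1 fell with all libraries (log2 fold change -2.52, SE 0.85, adjusted p = 0.0266) but did not pass without sham 5 (log2 fold change -0.70, adjusted p = 0.109).

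Proliferation genes rose in 10 of 26 and fell in none (median 1.2), and in 25 of 26 without sham 5 (median 2.09). Mki67, the antigen Ki-67 of dividing cells, was at 11.2 to 20.6 CPM in 5 sham libraries, 111 CPM in sham 5 and 29.8 to 74.6 CPM (median 59.7) in MI (log2 fold change 0.86, SE 0.55, adjusted p = 0.21). Without that library it gave a log2 fold change of 1.90, SE 0.22, adjusted p = 4.63e-05. The topoisomerase Top2a, with 65.5 CPM in sham 5, also had sham 5 above all MI libraries, and its log2 fold change was 2.10 without it (adjusted p = 1.57e-05). For cyclin B1 (Ccnb1) sham 5 lay within the MI range at 25.3 CPM (log2 fold change 2.65, adjusted p = 1.35e-05 without it). The gene that did not pass without sham 5 was the sliding clamp Pcna (log2 fold change 0.0018, adjusted p = 0.988).

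Markers of other cell types were measured as well. Of 12 mesothelial and epicardial markers, 7 rose and 1 fell; Msln, mesothelin, was at 11.6 to 57.5 CPM (median 22.8) in sham and 95.4 to 156 CPM (median 112) in MI (log2 fold change 1.98, SE 0.36, adjusted p = 0.00142), while the epicardial factor Wt1 did not pass (log2 fold change 0.20, adjusted p = 0.421). Of 7 cartilage and bone genes tested 2 rose, and without sham 5, 3 of the same 7 rose and 2 fell. Of these, the chondrogenic factor Sox9 was at 6.33 to 15.3 CPM (median 9.98) and 14.3 to 32.5 CPM (median 25.2) (log2 fold change 1.19, SE 0.23, adjusted p = 0.002). Aggrecan (Acan) was filtered out with all 12 libraries and rose without sham 5 (log2 fold change 6.21, SE 1.01, adjusted p = 0.000303), from at most 0.349 CPM in sham to 0.368 to 16.4 CPM (median 8.74) in MI. Of 8 mast cell genes 1 rose, of 9 erythroid genes 1 fell, of 7 Schwann cell genes none passed (edgeR; 0 at an unadjusted p under 0.05, 0 by DESeq2 and 1 by limma-voom with quality weights; 1 rose without sham 5), and of 5 skeletal muscle genes tested 2 rose. Of 8 adipocyte genes and of 7 lung genes 1 each was tested, of which the lung gene fell with all libraries and the adipocyte lipase Lipe fell without sham 5. Adipoq was at 33.8 CPM in MI 4 and at most 0.84 CPM in the other libraries. Of 8 B and plasma cell genes tested, 1 rose and 1 fell (median 0.26), and without sham 5, 4 rose and 1 fell (median 0.95). The part of these cells in the results above was not tested.

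The genes with the largest changes among those called, at a mean log2 CPM of 1 or more and with no overlap between groups, were 10 that rose and 10 that fell, out of 1153 and 833. Tnn, tenascin W, went from 0 to 0.749 CPM (median 0.0719) to 16.6 to 133 CPM (median 39.3) (log2 fold change 8.0, SE 0.84, adjusted p = 6.48e-05). Ca3, carbonic anhydrase 3, ranged over 0.152 to 0.963 CPM (median 0.213) and 13 to 159 CPM (median 37.5) (log2 fold change 7.37, SE 0.73, adjusted p = 4.9e-05), with MI 4 highest at 159 CPM. Ccn5, a matricellular protein of the CCN family, was at 0.888 to 9.33 CPM (median 2.01) and 74.2 to 601 CPM (median 349) (log2 fold change 6.89, SE 0.73, adjusted p = 6.92e-05). C1qtnf3, a secreted C1q- and TNF-related protein, was at 0.288 to 1.33 CPM (median 0.374) and 10.6 to 140.2 CPM (median 65.6) (log2 fold change 6.84, SE 0.66, adjusted p = 4.41e-05). The other 6 were Col11a1, Cthrc1, Adam12, Wnt4, Tmem178a (log2 fold change 5.70) and Trh, the precursor of thyrotropin-releasing hormone (log2 fold change 5.5). Since several were near 0 in sham, these fold changes depend on the prior count of the fit.

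Among the 10 largest falls, Adcy1, an adenylyl cyclase, was at 2.88 to 13.7 CPM (median 10.4) in sham and 0.0452 to 2.57 CPM (median 0.998) in MI (log2 fold change -3.05, SE 0.65, adjusted p = 0.0031). The homeobox partner Eya1 was at 3.8 to 11.9 CPM (median 7.93) and 0.0389 to 3.1 CPM (median 0.981) (log2 fold change -2.75, SE 0.65, adjusted p = 0.00507). Kcnj3, a subunit of the G protein-gated potassium channel, was at 20.2 to 48.5 CPM (median 36) and 1.82 to 13.7 CPM (median 4.88) (log2 fold change -2.45, SE 0.52, adjusted p = 0.00311). Of these 10, 4 are lymphocyte or interferon genes: Gzma, Gzmc (log2 fold change -2.73, adjusted p = 0.00175), the guanylate-binding protein Gbp1 (log2 fold change -2.49, adjusted p = 0.00874) and the chemokine Cxcl11 (log2 fold change -2.40, adjusted p = 0.00786). They were highest in sham 5 and lower in every MI library than in every sham library. Over 20 alternative fits, 1 of them without sham 5, the weakest log2 fold change was -2.46 for Gzmc, -1.75 for Gbp1 and -1.73 for Cxcl11. Each kept its call in all 20. The sorting nexin Snx22 (log2 fold change -2.42) and the uncharacterised LOC102556347 (-3.14) and LOC102547162 (-2.60) completed the 10.

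MI hearts also differed among themselves. The mean log2 CPM of the 8 cardiomyocyte markers was 11.29 in MI 1, 10.74 in MI 3, 9.74 in MI 5, 9.62 in MI 4, 8.07 in MI 6 and 7.54 in MI 2, against 11.98 to 12.35 in 5 sham libraries and 10.65 in sham 5. The macrophage score was 5.72 in MI 1 and 6.27 in MI 3, and 7.25 in MI 6 and 7.29 in MI 2. The myofibroblast score was 4.95 in MI 1 and between 6.10 and 6.86 in the other 5. MI 1 and MI 3 thus had the highest cardiomyocyte and lowest macrophage scores, and MI 2 and MI 6 the lowest cardiomyocyte and highest macrophage scores. Gpnmb was at 99.5 CPM in MI 1 and 859.6 in MI 3, and at 3458 in MI 2 and 3528 in MI 6. Infarct size was not among the data analysed here, and how much of each piece was scar cannot be told apart from the state of its cells.

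The effect of MI differed between zones of the same hearts. Tested with the animal as a block over 24 libraries, the effect in the infarct zone differed from that in the remote zone (ventricular septum) in 4748 of 16445 genes (28.9%), above it in 2232 (13.6%) and below it in 2516 (15.3%). Leaving out the sham 5 animal gave 4101, with 1867 above and 2234 below, and library size in place of TMM factors turned the split, with 3376 above and 2024 below. Against the border zone (lateral wall), none of 16766 genes (0%) passed in edgeR (lowest adjusted p 0.131, 1430 genes at an unadjusted p under 0.05; DESeq2 called 73), so that the calls for this difference depended on the tool. Respiratory chain genes were below their remote zone effect in 27 of 31, fatty acid genes in 18 of 25, TCA genes in 16 of 24 and sarcomere genes in 12 of 24, and in none of these lists above it. Fibrillar collagens were above it in 8 of 9, collagen processing genes in 18 of 24, matricellular genes in 14 of 28 and myofibroblast genes in 6 of 10, and in none of these below it.

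For single genes, each zone's fold change comes from a fit of that zone alone and the difference from the fit of both zones with the animal as block, so the difference need not equal the one between the fold changes. The log2 fold change of Tnni3 was -2.32 in the infarct, -1.55 in the border and -0.46 in the remote zone (difference -2.47, SE 0.60, adjusted p = 0.00932, infarct minus remote). Fabp3 was at -2.55 in the infarct, -1.87 in the border and -0.85 in the remote zone (difference -2.31, SE 0.64, adjusted p = 0.0173). For Myh6 the values were -2.66 in the infarct, -2.47 in the border and -1.71 in the remote zone, and the difference did not pass (difference -1.36, SE 0.87, adjusted p = 0.256). Nppb was at -0.49 in the infarct, 0.16 in the border and 0.83 in the remote zone (difference -1.49, SE 0.37, adjusted p = 0.00992), so that its effect lay below the remote one, and Nppa at 1.17 in the infarct, 1.78 in the border and 2.07 in the remote zone (difference -1.02, SE 0.58, adjusted p = 0.202). Decorin was also below its remote effect (difference -0.55, SE 0.17, adjusted p = 0.0302).

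Among genes that rose, Col1a1 was at 3.70 in the infarct, 3.33 in the border and 2.11 in the remote zone (difference 1.70, SE 0.28, adjusted p = 0.00153) and Fn1 3.51 in the infarct, 3.11 in the border and 1.92 in the remote zone (difference 1.63, SE 0.29, adjusted p = 0.00203). Acta2 was at 3.54 in the infarct, 2.99 in the border and 1.23 in the remote zone (difference 2.20, SE 0.34, adjusted p = 0.00106). Myh11 was at 1.49 in the infarct, 0.67 in the border and -0.55 in the remote zone (difference 1.97, SE 0.27, adjusted p = 0.000681). For Postn, with 4.46 in the infarct, 4.78 in the border and 3.61 in the remote zone, the difference from the remote zone was just past the threshold (difference 1.23, SE 0.44, adjusted p = 0.0485). The 5 genes furthest above their remote effect were Adamts16 (difference 4.58, SE 1.40, adjusted p = 0.0271), Ca3 (difference 4.32, SE 1.05, adjusted p = 0.00906), the proteoglycan Podnl1 (difference 3.55, SE 1.09, adjusted p = 0.0298), calponin Cnn1 (difference 3.32, SE 0.82, adjusted p = 0.00985) and LOC108352579 (difference 3.31, SE 0.75, adjusted p = 0.00662). The 5 furthest below it were LOC102546391 (difference -4.18, SE 0.64, adjusted p = 0.00102), LOC102546992 (difference -3.44, SE 0.63, adjusted p = 0.00237), LOC102546868 (difference -3.20, SE 0.70, adjusted p = 0.00529) and the cytochrome oxidase subunits Cox8b (difference -3.60, SE 0.75, adjusted p = 0.00428) and Cox7b (difference -3.12, SE 0.43, adjusted p = 0.0007). Cox8b fell in the infarct zone from 731 to 2497 CPM (median 1977) to 16.2 to 933 CPM (median 213) (log2 fold change -2.64, SE 0.76, adjusted p = 0.0132), and its log2 fold change was 0.25 in the remote zone (adjusted p = 0.5).

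**Figure D5:**
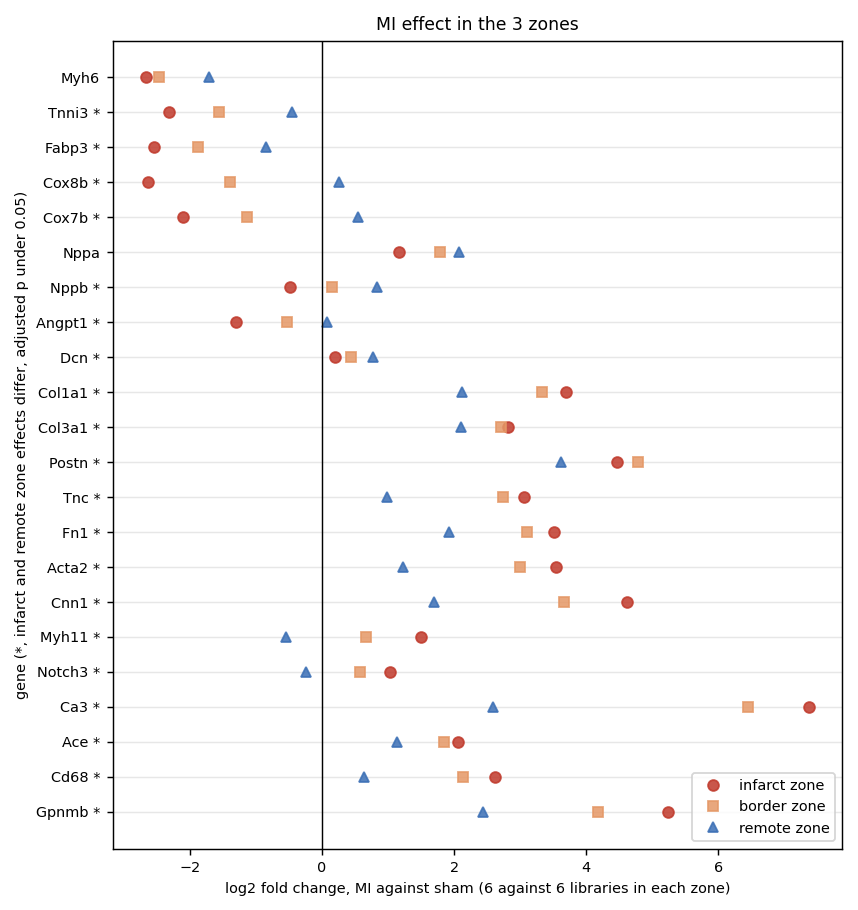
Log2 fold changes of MI against sham for 22 genes in the infarct zone (circles), border zone (squares) and remote zone (triangles), 6 against 6 libraries each; an asterisk marks genes whose infarct and remote effects differ at an adjusted p under 0.05. Cox8b, Cox7b, Nppb, Myh11 and Angpt1 (0.08 in the remote zone) have opposite signs in the infarct and remote zones.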

How the data were processed

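Polyadenylated RNA of pulverised frozen left ventricle was sequenced in paired-end reads. The authors trimmed and aligned reads to mRatBN7.2 (Annotation Release 108) with STARAligner 2.5.4. The deposited files hold raw read counts per gene for 40319 genes and 5 summary lines, 1 file per library. How reads were counted, and with which strand setting, is not given in the sources used here, so overlapping and antisense genes may share counts. DESeq2 is named in the submitters' processing notes.

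Summary lines, 17.7% to 42.8% of a library, were left out. Counts were tested as deposited with edgeR 4.0.16 in R 4.3.3 (TMM factors, filterByExpr, quasi-likelihood F test, Benjamini-Hochberg adjustment, threshold 0.05) over the 12 libraries. Standard errors are the log2 fold change over the root of F. CPM were computed with TMM factors, and a list's score is its mean log2 CPM (prior count 2). Zones were compared by a treatment-by-zone interaction term, keeping each animal as a block. Single values were compared by exact permutation tests, 2-sided. Alternatives were DESeq2 1.42.0, limma 3.58.1, filters, scaling, thinning, a block and leaving out each library. The code was tested on simulated counts.

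Named genes were the index genes of each list, the 10 largest rises and falls among genes called without overlap at a mean log2 CPM of at least 1, the 5 largest zone differences each way and the 10 genes highest in sham 5. Members and lists were chosen with earlier results of these data known. No 2 libraries of a group held identical counts. Promoters came from RefSeq's GRCr8 tables, since no genome of the authors' build was used here.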

Additional observations from a re-analysis of the deposited data

Results flagged for a closer look

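In 274 tests of 1 group of 6 libraries each (log2 CPM of the genes with a printed fold change, 5 list scores and 5 library values), 84 had a lowest or highest library beyond Dixon's 95% critical value, of which 66 were sham 5 and 15 were MI 1. For items chosen blind, chance would give about 1 in 20 tests. Here genes and lists were chosen with earlier results known, and the tests share their libraries. An excess over chance was therefore not tested.

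Sham 5 was lowest among sham hearts for genes of the cardiomyocyte. It had 1911 CPM for Myh6, 3541 for Myl2, 4792 for Tnni3, 2692 for Atp2a2, 537 for Ryr2, 239 for Kcnip2, 41.5 for Nkx2-5, 57.1 for Gata4, 6408 for Mb, 511 for Ckm and 1472 for Ckmt2. Among oxidation and glucose genes it had 1179 CPM for Fabp3, 136 for Cpt1b, 322 for Acadm, 412 for Ndufs1, 642 for Cox6a2, 1354 for Oxct1, 31.3 for Bdh1 and 114 for Slc2a4. It was also lowest for vessel, stromal and signal genes, with 352 CPM for Vegfa, 97.4 for Vegfb, 26.1 for Angpt1, 159 for Pecam1, 69.7 for Rgs5, 1512 for Gsn, 5.47 for Smoc2, 0.864 for Wif1, 7.89 for Wnt11, 8.18 for Wnt5a, 2.88 for Adcy1 and 3.4 for Snx22.

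Sham 5 was highest among sham hearts for immune genes, with 103 CPM for Cd3e, 2740 for RT1-Da, 5803 for Cd74, 73.2 for Prf1, 114 for Cxcl11, 1508 for Gbp1, 192 for Ccl2, 32.5 for Il1b, 742 for C1qa, 369.7 for C3, 121 for Cd68 and 177 for Gpnmb. It was highest for matrix and fibroblast genes, with 332 CPM for Postn, 136 for Tnc, 35.5 for Spp1, 619.7 for Bgn, 44.3 for Lox, 88.9 for Ltbp2, 113 for Timp1, 105 for Tgfb1, 28.5 for Sfrp2 and 30.9 for Runx1, and for dividing-cell and glucose transport genes, with 111 CPM for Mki67, 65.5 for Top2a, 25.3 for Ccnb1, 43.9 for Slc2a1 and 20.9 for Slc16a3. Its mean log2 CPM was 9.23 for MHC class II genes, 5.53 for T cell markers, 6.29 for macrophage markers and 10.65 for cardiomyocyte markers. Its share of counts on no gene was 20.6%, its share in the 10 most counted genes 6.32%, its Myh7 share 41.9% and its first principal component 5.97.

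MI 1 was the lowest MI heart for matrix and mural genes, with 2705 CPM for Col1a1, 6116 for Col3a1, 646 for Col4a1, 66.2 for Col8a1, 10.7 for Col11a1, 64.2 for Col12a1, 796 for Bgn, 22.1 for Spp1, 77.9 for Ltbp2, 74.2 for Ccn5, 10.6 for C1qtnf3, 130.5 for Tgfb3, 84 for Acta2, 42.8 for Notch3 and 14.3 for Sox9. Apart from these hearts, sham 6 was the highest of the sham libraries for Ca3, at 0.963 CPM, Adam19 stood apart in MI 3 at 174 CPM and Pcna in MI 6 at 71.5 CPM.

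The effect of MI differed between the infarct and the remote zone in 4748 genes by the interaction test. Of the genes whose difference between these zones is printed above, the log2 difference, infarct minus remote, was 4.58 for Adamts16, 4.32 for Ca3, 3.55 for Podnl1, 3.32 for Cnn1, 3.31 for LOC108352579, 2.20 for Acta2, 1.97 for Myh11, 1.70 for Col1a1, 1.63 for Fn1 and 1.23 for Postn. It was -4.18 for LOC102546391, -3.60 for Cox8b, -3.44 for LOC102546992, -3.20 for LOC102546868, -3.12 for Cox7b, -2.47 for Tnni3, -2.31 for Fabp3, -1.49 for Nppb and -0.55 for Dcn. The list is not complete. Other genes named in the text passed too, among them Ace (0.92), Col12a1 (2.19), Tnc (2.20), Ltbp2 (2.00) and, below its remote effect, Angpt1 (-1.45).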

How the results depend on the processing

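The number of genes called for MI against sham was 7866 and ran from 6689 to 10434 over the fits that left out 1 library, the highest without sham 5. With DESeq2 it was 8639, with limma-voom and quality weights 11208, without a filter on low counts 7447, with at least 10 counts in every library 7098, with library size in place of TMM factors 8322, in one fit of 54 libraries 9182 and after thinning to the smallest total 7607. With a log2 fold change above 1 in size as well it was 3617. Of 126 genes named with a test in the infarct zone, 88 kept their direction and side of the threshold in every one of up to 20 alternatives that gave a value, 12 lost a call in at least 1, 19 gained one and 9 changed sign in at least 1. With 1 library left out, 9 of the genes named lost their call and kept their direction. The call was lost for Gata4 without sham 1, sham 2, sham 3, MI 2, MI 5 or MI 6 (log2 fold change -0.55 to -0.49), for Kcnip2 without MI 4 or MI 5 (-2.19 to -2.09) and for Mb without sham 1, sham 2, sham 3, sham 4, sham 6, MI 4, MI 5 or MI 6 (-1.93 to -1.74). It was also lost for Myl2 without sham 1, sham 2, sham 3, sham 4, sham 6, MI 2, MI 3, MI 4, MI 5 or MI 6 (-1.54 to -1.21), for Plvap without sham 1, sham 2, sham 4, MI 2, MI 4, MI 5 or MI 6 (0.77 to 0.96) and for Prf1 without sham 5, MI 4, MI 5 or MI 6 (-2.51 to -0.70). Last, it was lost for Tgfb1 without sham 1, sham 2, sham 3, sham 4, sham 6 or MI 2 (0.86 to 0.93), for Timp4 without sham 2, sham 3, MI 2, MI 3, MI 4, MI 5 or MI 6 (-1.69 to -1.49) and for Tnc without sham 1, sham 2, sham 3, sham 4, sham 6, MI 4 or MI 6 (2.74 to 3.05). The other 3 kept theirs in those fits. With library size in place of TMM factors, Hk1 (-0.17, adjusted p = 0.224) and Adam19 (-0.21, adjusted p = 0.145) did not pass, nor did Cd163 in one fit of 54 libraries (0.92, adjusted p = 0.058). Over all alternatives, Gata4 lost its call in 8, Myl2 in 13, Plvap in 9 and Prf1 in 5. These 4 genes thus also lost it in alternatives other than leaving out a library. The log2 fold change of Gata4 closest to 0 was -0.30.

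Replicate numbers do not pair these hearts: same-numbered libraries had correlations of -0.32 to 0.31 in their deviations from the group means, over 0.1 in 2 of 6, and 1 of 6 correlated best with its own number. With the replicate block, 7570 genes passed, and the log2 fold change of Cd3e became 2.59, of Mx1 0.42 and of RT1-Da 1.49, none of which passed. For infarct against remote zone, the replicate number in place of the animal as block gave 2596 calls, against 4748; the cause was not tested.

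With limma-voom and quality weights the log2 fold change was 4.19 for Cd3e, 1.95 for RT1-Da, 0.74 for Mx1, 0.21 for Cd74 and -0.64 for Hcn4, each of the other sign than with all libraries weighted alike. With library size in place of TMM factors it was 0.12 for Cxcl12, 0.10 for Pcna and 0.091 for Pecam1. Leaving out 1 library gave -0.20 to 1.58 for Ccl2, -2.80 to 3.86 for Cd3e, -1.22 to 0.31 for Cd74, -0.30 to 0.57 for Hcn4, -0.74 to 0.80 for Mx1, -0.21 to 0.0018 for Pcna and -1.09 to 2.00 for RT1-Da. Without sham 5 the values were 3.86 for Cd3e, 0.80 for Mx1 and 2.00 for RT1-Da, and each passed.

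For infarct against remote zone, leaving out 1 animal gave 3654 to 5727 calls. Among the genes named for that difference, Adamts16 lost its call without sham 1 (3.56) or sham 2 (4.14), and Podnl1 without sham 4, 5 or 6 or MI 5 (3.14 to 4.16). For infarct against border zone it gave 0 to 1, the 1 without MI 3, and DESeq2 gave 73. The share of counts in the 10 most counted genes was 9.56% in sham and 7.82% in MI (exact permutation p = 0.0563). Its difference was -2.40 to -1.45 percentage points with 1 library left out, passing without sham 5, MI 2 or MI 6.

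Depth was lower in every sham than in every MI library, so that genes of few counts were measured less precisely in sham. Thinning all libraries to the smallest total did not move the number of calls by more than 1.5 times. All values compare 6 hearts with 6 at 1 time point.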
